A study of Mus musculus with 6 samples.

Results

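The plasma cell program is described here through 9 genes of the count table, chosen by name: Prdm1, Irf4, Xbp1, Ell2, Mzb1, Fkbp11, Jchain, Sdc1 and Tnfrsf17. They are 9 of the 46963 gene names in the table, and all 9 were among the 14600 genes that were tested, those which reached 10 counts in 2 or more libraries. RNA came from CD43-depleted splenic B-cells of wt mice, of mice lacking the Eμ enhancer with its matrix attachment regions (Eμ-deficient) and of mice lacking the 3′ regulatory region (3′RR-deficient), all young adults of the 129 background and of both sexes. Both deletions are germline deletions at the IgH locus, so that every cell carries them, and the study describes a lack of follicular B-cells in the Eμ-deficient model. Cells of each genotype were taken resting, without stimulus, or after 2 days with 5 μg per ml of lipopolysaccharide (LPS), a bacterial cell wall component that activates B-cells. By the labels the resting cells also spent 2 days in culture, and 1 protocol text gives the LPS dose in mg, whereas by the study's methods resting cells were taken before stimulation. There was 1 library for each genotype and culture state, 6 in all, each a pool of 2 mice by the labels, and the same mice may have given both libraries of a genotype. The study's methods describe 2 RNA pools for each genotype, and whether a library here holds 1 pool or both is not given in the sources used here.

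A plasma cell is a B-cell that has turned into an antibody factory. Irf4 and Blimp-1, the product of Prdm1, switch off the B-cell state, Xbp1 enlarges the endoplasmic reticulum, and the joining chain encoded by Jchain links IgM and IgA into polymers. LPS drives splenic B-cells to proliferate, to switch class and in part to become plasmablasts. CD43, the antigen used for depletion, is carried by plasma cells, B-1 cells and T-cells but by few resting follicular or marginal zone B-cells.

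Counts over all genes ran from 9111974 to 21998587 per library. Levels are given as CPM, counts brought to a common library size with TMM scaling in edgeR, and a count of 0 allowed up to between 0.143 and 0.337 CPM, for counting error alone. The 7 B-cell markers of the fixed list were detected in every library and summed to between 4354 and 5483 CPM in the resting and between 2314 and 2799 CPM in the LPS-stimulated libraries. The table has no row for the deleted enhancers. Ighg3, a constant gene known to depend on the 3′RR, had 2 and 0 counts in the resting and LPS-stimulated 3′RR-deficient libraries against 807 and 1285 counts in wt. The stimulated wt and 3′RR-deficient libraries both departed from their resting partners. Over 35 spike-in RNAs, added at fixed proportions, the log2 ratio of stimulated to resting libraries had an SD of 0.78 in wt, 0.63 in 3′RR-deficient and 0.13 in Eμ-deficient cells. Between the stimulated 3′RR-deficient and wt libraries the SD was 1.27, with a range of -3.37 to 1.4 around the median, and between the resting ones it was 0.16. For Eμ-deficient over wt it was 0.48 in resting and 0.44 in stimulated cells. The ratios also followed GC content. Median log2 ratios are given from the tenth of genes lowest to the tenth highest in GC content. That for LPS went from 0.47 to -0.72 in wt and from -0.50 to 0.071 in 3′RR-deficient cells. That of 3′RR-deficient over wt after LPS went from -0.83 to 0.82. For Eμ-deficient over wt it went from 0.46 to -0.44 in resting and from -0.23 to 0.23 in stimulated cells.

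The effect of LPS was tested over all 6 libraries with the quasi-likelihood test of edgeR in an additive model of genotype and LPS, so that each genotype gave a pair of libraries. The spread it uses is how far the pairs depart from a common change, and it does not measure the spread between mice. All adjusted p are Benjamini-Hochberg values over all genes tested. Prdm1, Xbp1, Ell2, Mzb1 and Fkbp11 rose with LPS, between 3.32-fold and 8.21-fold, and Irf4, Jchain, Sdc1 and Tnfrsf17 did not pass the test. The 5 of 9 that were called compare with 40.8% of all genes tested that were called in either direction. All 5 were higher, against 19.7% of all genes called higher, and no plasma cell gene was called lower, against 21.1% of all genes. The median log2 fold change of the 9 genes was 1.73, and that of all genes was -0.067. By size alone, 5 of the 9 genes were at least 2-fold higher after LPS in wt cells, where 46.7% of all genes were past 2-fold, 21.4% higher and 25.4% lower. In Eμ-deficient cells 5 were higher and 2, Jchain and Tnfrsf17, were lower, where 36.9% of all genes were past 2-fold, 17.0% higher and 19.9% lower. In 3′RR-deficient cells 6 were higher, the 5 called genes and Sdc1, and 0 were lower, where 39.6% of all genes were past 2-fold, 18.6% higher and 21.0% lower. In bulk RNA, more cells of a type and more RNA per cell cannot be told apart.

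**Figure D1:**
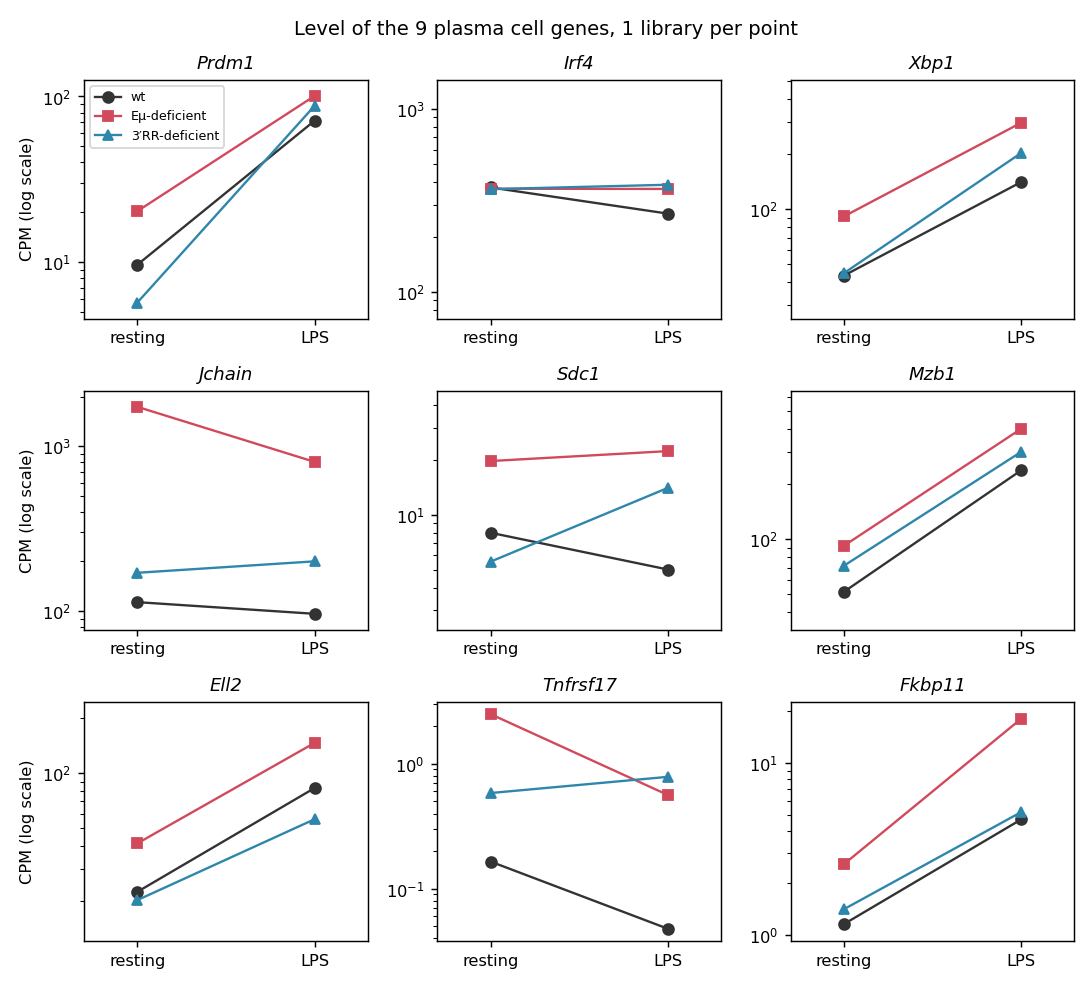
Level of each of the 9 plasma cell genes in CPM on a log scale, in resting and LPS-stimulated B-cells. Each point is 1 library and lines join the libraries of a genotype. Prdm1, Xbp1, Mzb1, Ell2 and Fkbp11 were higher in every LPS-stimulated library than in any resting library, whereas Irf4 stayed between 267.8 and 385 CPM and Jchain was highest in both Eμ-deficient libraries.

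Prdm1, the gene of the repressor Blimp-1 (chromosome 10 of mm10, 44437177 to 44528501, minus strand), had 9.63 CPM in resting wt, 20.3 CPM in resting Eμ-deficient and 5.69 CPM in resting 3′RR-deficient B-cells. After LPS it had 71.5, 101 and 88.1 CPM, respectively. The lowest stimulated library was thus above the highest resting library. The model gave a log2 fold change of 3.04 (standard error 0.34, adjusted p = 0.000255). The rise was 7.43-fold in wt, 4.98-fold in Eμ-deficient and 15.5-fold in 3′RR-deficient cells.

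Xbp1, the gene of a transcription factor that is made active by splicing of its mRNA during endoplasmic reticulum stress (chromosome 11, 5520659 to 5525893, plus strand), rose from 43.3 to 140.9 CPM in wt, from 91.3 to 297 CPM in Eμ-deficient and from 44.7 to 203 CPM in 3′RR-deficient cells. Its log2 fold change was 1.86 (standard error 0.25, adjusted p = 0.000617). The counts per gene do not separate the spliced from the unspliced form.

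Ell2 encodes an elongation factor of RNA polymerase II that favours the secretory form of heavy chain mRNA (chromosome 13, 75706757 to 75772364, plus strand). It rose from 22.4 to 83.0 CPM in wt, from 41.3 to 146.6 CPM in Eμ-deficient and from 20.2 to 56.1 CPM in 3′RR-deficient cells, with a log2 fold change of 1.73 (standard error 0.23, adjusted p = 0.000576). The rise was between 2.77-fold and 3.70-fold in the 3 genotypes. GENCODE M21 places the short genes Gm48302 and Gm23127 within its span on the same strand and 1700037F03Rik across its start on the opposite strand, so that some of its reads may be shared.

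Mzb1 encodes a chaperone cofactor of the endoplasmic reticulum that is found in marginal zone and B-1 cells as well as in plasma cells (chromosome 18, 35647267 to 35649367, minus strand). It rose from 51.5 to 238 CPM in wt, from 91.9 to 402 CPM in Eμ-deficient and from 71.5 to 300.5 CPM in 3′RR-deficient cells, and its log2 fold change was 2.14 (standard error 0.25, adjusted p = 0.000316). The rise was between 4.203-fold and 4.63-fold in the 3 genotypes, and with the trend on GC content removed its log2 ratios were 2.61 in wt, 2.08 in Eμ-deficient and 1.94 in 3′RR-deficient cells. In the GENCODE M21 annotation it lies within the span of another gene on the same strand, Spata24, so that its count depends on how shared reads were assigned.

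Fkbp11 encodes a peptidyl-prolyl isomerase of the secretory pathway (chromosome 15, 98724366 to 98728198, minus strand). It had 21, 34 and 29 counts in the resting wt, Eμ-deficient and 3′RR-deficient libraries and 98, 192 and 46 counts after LPS. In CPM it rose from 1.16 to 4.68 in wt, from 2.57 to 18.0 in Eμ-deficient and from 1.41 to 5.17 in 3′RR-deficient cells, with a log2 fold change of 2.25 (standard error 0.34, adjusted p = 0.00107).

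In Eμ-deficient and in 3′RR-deficient cells, the rise of each of these 5 genes exceeded the range of the spike-in RNAs between the same libraries, whose highest log2 ratios around the median were 0.29 and 1.01. In wt cells this range reached 2.28. Of the 5, only Prdm1 was above it in wt, with a log2 ratio of 2.89 (95% interval 2.67 to 3.13), and the log2 ratios of Xbp1, Ell2, Mzb1 and Fkbp11 ran from 1.70 to 2.21. Without the 3′RR-deficient libraries, the same 5 genes were still called.

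The RefSeq start regions of the genes that rose together are printed to show what stands immediately before each start. The 250 bases before the start, from RefSeq on GRCm38.p6, were used for 8 of the 9 genes. Mzb1, which also rose, was left out, so that nothing is said of its window. Each sequence reads 5′ to 3′ along the gene, and capitals mark CCACG, the part of the endoplasmic reticulum stress element that XBP1 and ATF6 bind, or TGACGTCA, the full cyclic AMP response element, searched on both strands. The windows of Xbp1 and of the first start of Fkbp11 hold neither and so have no capitals. Those of Prdm1, Ell2 and the other start of Fkbp11 lie inside the span of the gene as GENCODE annotates it, before a start further downstream.
Prdm1, chr10:44458749-44458998, minus strand: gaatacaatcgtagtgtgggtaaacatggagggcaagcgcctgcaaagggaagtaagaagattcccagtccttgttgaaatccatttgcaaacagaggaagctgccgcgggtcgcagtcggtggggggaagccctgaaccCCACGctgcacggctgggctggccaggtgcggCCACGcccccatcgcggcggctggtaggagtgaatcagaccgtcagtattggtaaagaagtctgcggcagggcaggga
Xbp1, chr11:5520391-5520640, plus strand: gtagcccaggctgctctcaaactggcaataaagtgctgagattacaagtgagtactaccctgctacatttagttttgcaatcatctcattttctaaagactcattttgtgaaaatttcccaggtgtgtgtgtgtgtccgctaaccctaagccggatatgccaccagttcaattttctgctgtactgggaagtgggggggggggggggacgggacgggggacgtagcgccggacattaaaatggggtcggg
Ell2, chr13:75707234-75707483, plus strand: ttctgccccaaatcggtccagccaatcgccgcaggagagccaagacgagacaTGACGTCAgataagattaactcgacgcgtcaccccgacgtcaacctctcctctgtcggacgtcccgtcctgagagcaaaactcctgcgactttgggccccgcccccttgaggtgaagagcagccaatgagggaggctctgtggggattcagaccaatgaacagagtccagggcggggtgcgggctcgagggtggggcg
Fkbp11, chr15:98728199-98728448, minus strand: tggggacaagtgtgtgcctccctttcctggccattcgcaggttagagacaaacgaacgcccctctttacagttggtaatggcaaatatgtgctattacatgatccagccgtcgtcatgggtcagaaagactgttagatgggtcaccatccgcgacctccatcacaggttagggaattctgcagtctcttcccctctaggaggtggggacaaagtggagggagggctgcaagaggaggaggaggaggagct
Fkbp11, the other start, chr15:98727628-98727877, minus strand: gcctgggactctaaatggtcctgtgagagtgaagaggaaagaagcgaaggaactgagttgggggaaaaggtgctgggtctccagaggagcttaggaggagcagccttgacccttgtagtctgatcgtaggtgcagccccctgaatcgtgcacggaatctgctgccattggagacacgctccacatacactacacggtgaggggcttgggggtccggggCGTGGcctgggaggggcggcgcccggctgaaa
Prdm1 held CCACG at 2 places, 110 and 78 bases before the start, and Fkbp11 held it on the reverse strand 32 bases before the other start. Irf4 and Sdc1, which are not printed, also held it. CCACG was found in 28.3% of the 32851 RefSeq windows of this length. The longer letters CCACGT, found in 6.91% of all windows, were in none of the 9 windows of these 8 genes. TGACGTCA was found 198 bases before the start of Ell2 and in 1.55% of all windows. The letters GAAA followed after 2 bases by GAAA, an interferon response element, were in 2.98% of all windows and on the reverse strand of Tnfrsf17. The composite element that IRF4 binds with PU.1, GGAA followed after 2 bases by GAAA, was in 2.3% of all windows and in none of these.

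Irf4, whose product drives class switching at a low level and plasma cell formation at a high level (chromosome 13, 30749226 to 30766976, plus strand), had 372, 366 and 364 CPM in resting wt, Eμ-deficient and 3′RR-deficient B-cells. After LPS it had 267.8, 365 and 385 CPM. The 3 resting libraries were nearly equal, and wt was the lowest of the stimulated libraries. The log2 fold change was -0.13 (standard error 0.26, adjusted p = 0.71).

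Jchain (chromosome 5, 88519809 to 88527891, minus strand) had 113 CPM in resting wt, 1734.5 CPM in resting Eμ-deficient and 170.6 CPM in resting 3′RR-deficient B-cells, and 96.1, 803 and 200.2 CPM after LPS. From lowest to highest, the values of a culture state spread further than those of any genotype, with the Eμ-deficient library highest in each state. Between 3′RR-deficient and wt cells the log2 ratio was 0.59 in resting cells and 1.06 after LPS. The log2 fold change for LPS was -0.37 (standard error 0.32, adjusted p = 0.377), and it was 0.090 without the Eμ-deficient libraries. Jchain was lower after LPS in Eμ-deficient cells, with a log2 ratio of -1.11 (95% interval -1.15 to -1.08), and higher in 3′RR-deficient cells, with 0.23 (95% interval 0.15 to 0.31).

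Sdc1 encodes CD138, the surface proteoglycan by which plasma cells are sorted (chromosome 12, 8771323 to 8793715, plus strand). It had 145, 260 and 114 counts in the resting wt, Eμ-deficient and 3′RR-deficient libraries and 105, 238 and 125 counts after LPS. These correspond to 7.98, 19.7 and 5.54 CPM and to 5.02, 22.3 and 14.0 CPM. The stimulated and resting libraries overlapped, with a log2 fold change of 0.28 (standard error 0.37, adjusted p = 0.574). Without the wt libraries it was 0.75 and was called (adjusted p = 0.041), and without the 3′RR-deficient libraries it was -0.25.

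Tnfrsf17 encodes BCMA, a survival receptor of long-lived plasma cells (chromosome 16, 11313812 to 11320074, plus strand). It had 3, 33 and 12 counts in the resting and 1, 6 and 7 counts in the LPS-stimulated wt, Eμ-deficient and 3′RR-deficient libraries. Both wt libraries were at or below the floor of 3 counts, so that no fold for LPS in wt is given. The model gave a log2 fold change of -1.05 (standard error 0.71, adjusted p = 0.263). In Eμ-deficient cells the log2 ratio of LPS-stimulated to resting was -2.15 (95% interval -3.70 to -0.88).

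Compared per kilobase of exon, the order of the 9 genes changed with LPS. In resting wt cells Irf4 was highest with 75.9 CPM per kb, followed by Jchain with 45.0, Mzb1 with 42.4 and Xbp1 with 13.3 CPM per kb, and the other 5 genes were at 2.28 CPM per kb or below. The lowest were Fkbp11 with 0.427 and Tnfrsf17 with 0.202 CPM per kb. After LPS Mzb1 was highest in all 3 genotypes, with 196 CPM per kb in wt, 331 in Eμ-deficient and 247 in 3′RR-deficient cells. In resting Eμ-deficient cells Jchain was first, at 689 CPM per kb, ahead of Mzb1 at 75.7 and Irf4 at 74.7 CPM per kb. With 1 library per group, neighbours in this order have no measured spread. In LPS-stimulated 3′RR-deficient cells Jchain (79.5 CPM per kb) and Irf4 (78.6 CPM per kb) were nearly equal.

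The summed levels of markers of other cell types were lower after LPS. All 5 T-cell, 7 myeloid and 4 erythroid markers, 3 of 5 dendritic cell markers and both NK cell markers tested were called lower. The summed level of the 5 T-cell markers went from between 14.1 and 30.9 CPM in the resting to between 0.335 and 3.56 CPM in the stimulated libraries, that of the 7 myeloid markers from between 134 and 320.3 to between 14.1 and 27.3 CPM, and that of the 5 dendritic cell markers from between 65.2 and 132 to between 29.2 and 33.5 CPM. The 4 erythroid markers went from between 2576 and 14533 to between 40.3 and 545 CPM, and the 3 NK cell markers from between 3.08 and 4.37 to between 0 and 1.41 CPM. Among the markers at 0 counts in the stimulated wt library were Cd3e, Cd8a, S100a9, Mpo, Klk1 and all 3 NK cell markers. The dendritic cell marker Flt3 went the other way, with a log2 fold change of 0.40, and was not called (adjusted p = 0.235). The part of these other cells in the results was not tested.

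Genes that work with the 9 were followed in 6 lists with 61 genes, of which 57 were tested and 35 were called with LPS, where 40.8% of all genes tested were called. The counts below stand against 19.7% of all genes called higher and 21.1% called lower. Of 20 genes listed for the secretory pathway, 15 rose, 2 fell and 3 did not pass the test. Their median log2 fold change was 1.34. Sdf2l1, a cofactor of the chaperone BiP, rose by a log2 fold change of 2.69 (standard error 0.28, adjusted p = 0.000187). Hid1 (2.48), Manf (2.21), a secreted factor induced by endoplasmic reticulum stress, and the disulfide isomerase gene Pdia6 (2.13) also rose. The 2 that fell were Dnajb9 (-1.68) and Herpud1 (-0.67), both known targets of the unfolded protein response, which are named because they were the exceptions. Without the 3′RR-deficient libraries 14 rose and 1 fell.

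Of 8 genes listed as plasma cell regulators, 5 rose and 3 did not pass the test, with a median of 1.09. Zbtb32, a repressor induced on B-cell activation, had between 1.29 and 1.94 CPM in the resting and between 80.4 and 122 CPM in the stimulated libraries, a log2 fold change of 6.01 (standard error 0.30, adjusted p = 4.36e-05). Bhlha15, which encodes MIST1, a factor of secretory cells, rose by 2.82 (standard error 0.26, adjusted p = 0.000126). Eaf2, whose product binds ELL proteins, rose by 1.53, and Creb3l2 by 1.14.

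Of 10 factors that hold the B-cell state, 4 fell, 1 rose and 5 did not pass the test, with a median of -0.86. Ets1 fell by 1.80 on the log2 scale (standard error 0.27, adjusted p = 0.000986), Bcl6 fell by 1.77, and Ciita, the class II transactivator and a target of Blimp-1, fell by 1.71. Id3, an inhibitor of E proteins, rose by 1.32. Pax5, another target of Blimp-1 and singled out after its values were seen, had a log2 fold change of -0.31 (standard error 0.25, adjusted p = 0.358).

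Of 10 surface genes, 2 rose, 2 fell and 6 did not pass the test, which is close to the 19.7% and 21.1% over all genes, and their median was 0.020. Tnfrsf13b, which encodes TACI, the receptor related to BCMA, rose from between 69.5 and 74.9 CPM to between 210.0 and 225 CPM (log2 fold change 1.57, standard error 0.24, adjusted p = 0.00107). Spn, the gene of CD43 itself, rose by 1.65 (standard error 0.36, adjusted p = 0.00659), but unevenly. It went from 14.0 to 20.0 CPM in wt, from 10.1 to 40.4 CPM in Eμ-deficient and from 17.2 to 90.1 CPM in 3′RR-deficient cells. Cxcr4, the homing receptor for bone marrow, fell by 2.75, and the receptor Cd28 had -1.18 with an adjusted p of 0.0586.

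Of 8 paralogs of Ell2, Sdc1 and Fkbp11, 5 had enough counts to be tested, of which 1 rose, 1 fell and 3 did not pass the test, with a median of -0.53. Ell3 fell by 2.91 on the log2 scale (standard error 0.46, adjusted p = 0.00143), and Ell had -0.53 (adjusted p = 0.155), whereas Ell2 rose. Fkbp2, another isomerase of the secretory pathway, rose by 1.18 (adjusted p = 0.00347), and Sdc3 had -1.05 (adjusted p = 0.052). Without the 3′RR-deficient libraries 2 of the 5 fell. Of 5 other transcripts high in plasma cells, 4 were tested, with a median of -0.32. Pycr1, an enzyme of proline synthesis, rose by 2.66, Glcci1 fell by 0.83, and Trp53inp1 (-0.47) and Cacna1h (-0.18) did not pass the test.

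**Figure D2:**
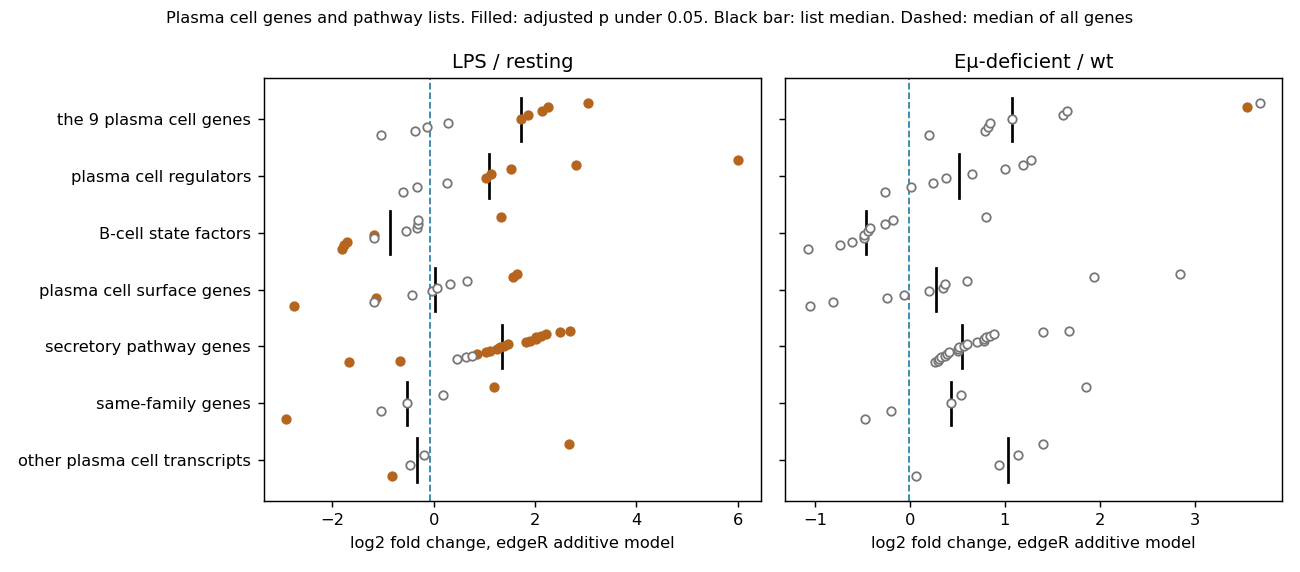
Log2 fold changes of the 9 plasma cell genes and of the tested genes of 6 lists in the edgeR additive model, for LPS over resting on the left and Eμ-deficient over wt on the right. Each point is a gene, filled points have an adjusted p under 0.05, black bars are list medians and the dashed line is the median of all genes. With LPS 5 of the 9 plasma cell genes and 15 of 20 secretory pathway genes are filled on the right of the dashed line, and for Eμ-deficient over wt only Jchain is filled.

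Within a culture state each genotype had 1 library, so that ratios between genotypes there are given without a test, with an exact binomial interval for counting error alone. Amplified reads are not independent molecules, which these intervals do not cover. In Eμ-deficient B-cells all 9 genes had a log2 fold change above 0 in the additive model, with a median of 1.08 against -0.013 for all genes. Of the 9, 1 was called, Jchain, against 1.16% of all genes called in either direction, 0.911% higher and 0.253% lower. Without the stimulated wt library 4 of the 9 were called, Xbp1, Ell2 and Tnfrsf17 with Jchain, and Irf4 was at -0.046.

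Jchain was 15.3-fold higher in the Eμ-deficient than in the wt library in resting cells, where the log2 ratio was 3.94 (95% interval 3.87 to 4.00), and 8.35-fold higher after LPS, where the log2 ratio was 3.06 (95% interval 2.99 to 3.13). These values were above every spike-in RNA of the same libraries, whose highest log2 ratios around the median were 1.296 and 0.57. The model gave a log2 fold change of 3.55 (standard error 0.43, adjusted p = 0.00748), and over the alternative fits the adjusted p lay between 6.37e-18 (DESeq2) and 0.0222 (GC trend removed). Ighm, the heavy chain gene whose pentameric product carries the joining chain, had 2086 and 5217 CPM in resting wt and Eμ-deficient cells and 2977 and 7370 CPM after LPS.

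Sdc1 was 2.47-fold higher in resting Eμ-deficient cells, with 19.7 against 7.98 CPM, and 4.44-fold higher after LPS, with 22.3 against 5.02 CPM. Its log2 ratio of 1.303 in resting cells lay at the edge of the spike-in range, and that of 2.15 after LPS (95% interval 1.81 to 2.50) lay above it. The model gave 1.66 (standard error 0.45, adjusted p = 0.168). Tnfrsf17 had 33 counts against 3 in resting cells, a log2 ratio of 3.92 (95% interval 2.25 to 6.27), and 6 counts against 1 after LPS, a log2 ratio of 3.56 (95% interval 0.51 to 9.08) that becomes 1.97 with the 1 count set to the floor of 3. It was not called (3.68, standard error 0.91, adjusted p = 0.12).

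The genes of the endoplasmic reticulum and the regulators did not pass the test. Fkbp11 had log2 ratios of 1.16 (95% interval 0.33 to 2.01) in resting and 1.94 (95% interval 1.58 to 2.31) in LPS-stimulated cells, and a log2 fold change of 1.61 in the model (standard error 0.40, adjusted p = 0.126). Xbp1 had log2 ratios of 1.08 in both culture states, and the model gave 1.08 (standard error 0.30, adjusted p = 0.18). Prdm1 was at 1.08 in resting and 0.50 in LPS-stimulated cells, Mzb1 at 0.84 and 0.75, and Ell2 at 0.88 and 0.82. None of the 3 was called, with adjusted p from 0.277 to 0.626. Irf4 was close to wt in resting cells, with a log2 ratio of -0.02 (95% interval -0.08 to 0.03), and at 0.45 (95% interval 0.39 to 0.51) after LPS.

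Counted by size, 6 of the 9 genes were at least 2-fold higher in resting Eμ-deficient cells, where 18.3% of all genes were past 2-fold, 12.6% higher and 5.62% lower. After LPS 5 of the 9 were, where 12.5% of all genes were past 2-fold, 9.12% higher and 3.4% lower. None of the 9 was 2-fold lower in either state. With the GC trend removed 6 passed 2-fold in resting cells and 4 after LPS. With libraries scaled by their total count, which lowers every log2 ratio of the resting pair by 0.20, 3 of the 9 passed 2-fold in resting cells. Of the 9 genes Jchain and Tnfrsf17 lay above the spike-in range in both culture states. Sdc1 did so after LPS and was at its edge in resting cells, with 1.3025 against 1.2959. Xbp1, Mzb1, Ell2 and Fkbp11 lay above it only in the LPS-stimulated libraries, where its upper end was lower, at 0.57. The log2 ratios of Xbp1, Mzb1 and Ell2 themselves differed little, with 1.08, 0.84 and 0.88 in resting and 1.08, 0.75 and 0.82 in stimulated cells. When the 3′RR-deficient library from the stimulated cells was left out, 3 of the 9 genes were called in place of 1, without both 3′RR-deficient libraries 2 were, and DESeq2 called 3.

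**Figure D3:**
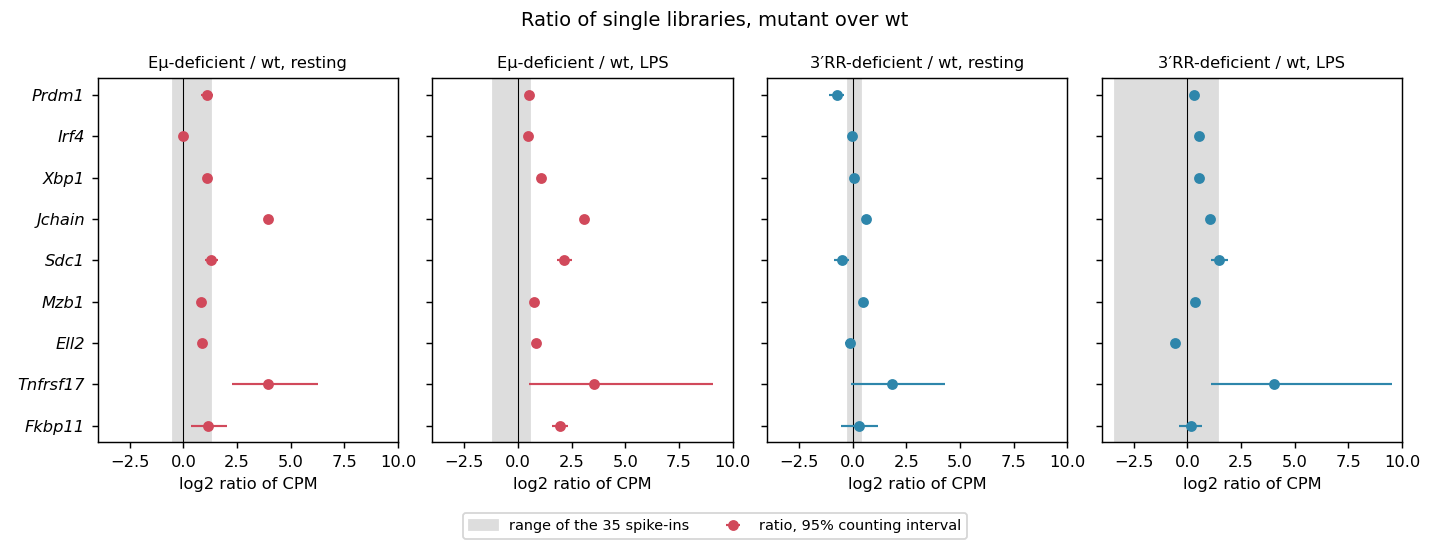
Log2 ratio of CPM of a mutant library to the wt library of the same culture state for the 9 plasma cell genes, with 95% binomial intervals for counting error. The shaded band is the range of 35 spike-in RNAs around their median. Jchain lies beyond the band in both Eμ-deficient panels, at 3.94 and 3.06, and the band in the panel for 3′RR-deficient cells after LPS, from -3.37 to 1.4, holds 7 of the 9 genes.

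Of the 57 tested genes of the 6 lists, edgeR called 0 for Eμ-deficient over wt and DESeq2 called 3. Over all genes edgeR called 170 and DESeq2 called 340. Leaving out the stimulated 3′RR-deficient library gave 2 calls among the secretory pathway genes, 2 among the surface genes and 1 among the paralogs, all higher. Over all genes that fit called 421. All 20 secretory pathway genes had a log2 fold change above 0, between 0.27 and 1.67. Their median was 0.54, against -0.013 for all genes, and the highest gene was Hid1 (standard error 0.39, adjusted p = 0.102). Among the regulators Eaf2 had 1.27 (adjusted p = 0.0902), Creb3l2 had 1.195, Bhlha15 had 1.00 and Zbtb32 had 0.24. Of the 10 factors of the B-cell state, 9 had a value below 0, with a median of -0.46. The lowest was Bach2, a repressor of Prdm1 named after its values were seen, with 167 CPM in wt and 48.1 CPM in Eμ-deficient resting cells, and 82.9 and 60.7 CPM after LPS (log2 fold change -1.08, standard error 0.38, adjusted p = 0.353).

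The summed levels of the markers of other cells were higher in the Eμ-deficient libraries, although only erythroid markers were called and single markers such as Klk1 (log2 fold change -1.67) were below wt. All 4 erythroid markers were called, with log2 fold changes of 2.67 or more, and summed to 14533 CPM in resting Eμ-deficient against 2576 CPM in resting wt cells, and to 545 against 40.3 CPM after LPS. The myeloid sum was 320.3 against 137 CPM in resting and 27.3 against 14.1 CPM in stimulated cells. The T-cell sum was 30.9 against 14.1 CPM and 3.56 against 0.335 CPM, and the dendritic cell sum 132 against 65.2 CPM and 32.9 against 29.2 CPM. The NK cell sum was 3.48 against 3.08 CPM and 1.41 against 0 CPM. The B-cell sum was lower, at 4354 against 5483 CPM and 2314 against 2506 CPM, but no B-cell marker was called. Cd74 alone gave 3148 of the 5483 CPM in resting wt cells. Ms4a1 and Blnk were above wt in resting Eμ-deficient cells, as were Cd79b and Blnk after LPS. In the resting Eμ-deficient library no marker was at 0, and in the stimulated one Klk1 and Klrb1c were. The part of these other cells in the levels of the plasma cell genes was not tested.

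In 3′RR-deficient B-cells 0 of the 9 genes were called by edgeR, against 0.678% of all genes tested, 0.171% higher and 0.507% lower. The largest log2 fold change was that of Tnfrsf17, 2.64 with a standard error of 0.97 (adjusted p = 0.671). DESeq2 called 0. In resting cells Jchain was 1.51-fold higher, with 170.6 against 113 CPM and a log2 ratio of 0.59 (95% interval 0.51 to 0.67), and Mzb1 was 1.39-fold higher, with 0.47 (95% interval 0.35 to 0.59). Prdm1 was lower, with 5.69 against 9.63 CPM and a log2 ratio of -0.76 (95% interval -1.11 to -0.41), and so was Sdc1, with -0.53 (95% interval -0.89 to -0.16). These 4 ratios lay outside the spike-in range of -0.21 to 0.37. Xbp1 (0.04), Irf4 (-0.03), Ell2 (-0.15) and Fkbp11 (0.29) had intervals that include 0. Of the 9 genes 1 was past 2-fold, Tnfrsf17, with 12 counts against 3 and a log2 ratio of 1.82 whose 95% interval of -0.068 to 4.29 includes 0, where 9.33% of all genes were past 2-fold, 5.38% higher and 3.95% lower.

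After LPS 3 of the 9 genes were at least 2-fold higher in the 3′RR-deficient library, where 26.6% of all genes were past 2-fold, 15.9% higher and 10.7% lower. They were Jchain, with 200.2 against 96.1 CPM and a log2 ratio of 1.06 (95% interval 0.97 to 1.15), Sdc1, with 14.0 against 5.02 CPM and 1.48 (95% interval 1.10 to 1.87), and Tnfrsf17, with 7 counts against 1 and 4.04 (95% interval 1.08 to 9.53), or 2.46 with the 1 count set to 3. Sdc1 and Tnfrsf17 lay above the spike-in range of this pair, and the other 7 genes lay within it. Prdm1 was at 0.30, Irf4 at 0.52, Xbp1 at 0.53, Mzb1 at 0.34, Fkbp11 at 0.14 and Ell2 at -0.57. With the trend on GC content removed, 2 of the 9 were past 2-fold, since Sdc1 moved to 0.94. Jchain, whose transcript has a GC content of 38.2%, moved to 1.98. Ell2 moved to 0.17, Mzb1 to -0.13 and Fkbp11 to -0.33, so that the direction of these 3 genes in this pair of libraries depended on the correction.

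**Figure D4:**
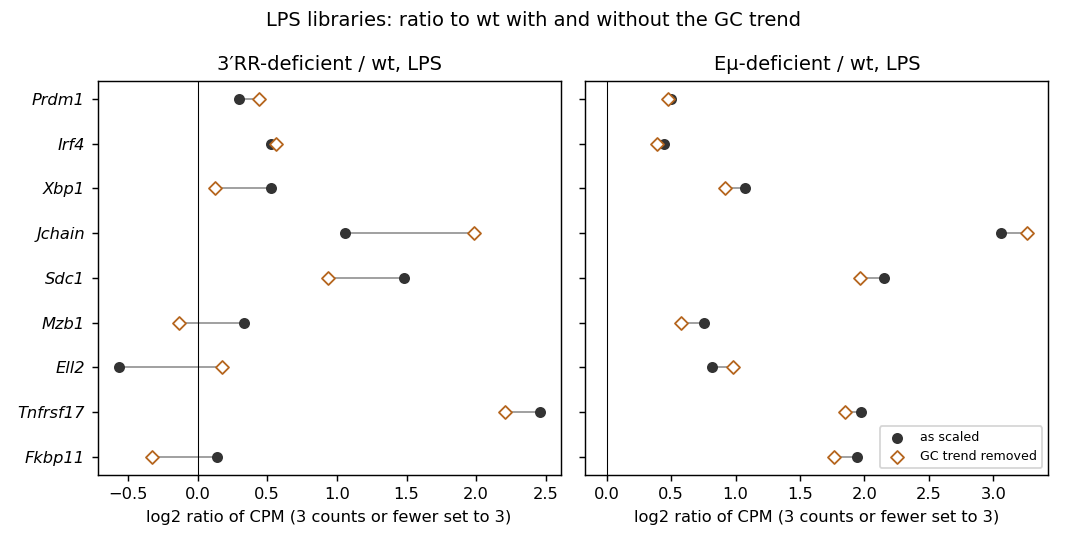
Log2 ratio of LPS-stimulated mutant to LPS-stimulated wt CPM for the 9 genes, as scaled by TMM and with the trend on transcript GC content removed, with 3 counts or fewer set to 3 counts. In the 3′RR-deficient panel Jchain moved from 1.06 to 1.98 and Ell2 from -0.57 to 0.17, whereas in the Eμ-deficient panel all 9 genes stayed above 0.

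The 6 lists gave 0 edgeR calls and 0 DESeq2 calls for 3′RR-deficient over wt. The median of the secretory pathway genes was 0.21 and that of the B-cell state factors 0.06, against 0.038 for all genes. In the resting libraries the summed markers of other cells were close to wt, with 2844 against 2576 CPM for erythroid, 134 against 137 CPM for myeloid, 17.7 against 14.1 CPM for T-cell and 66.2 against 65.2 CPM for dendritic cell markers. After LPS they were 108 against 40.3 CPM, 20.7 against 14.1 CPM, 1.12 against 0.335 CPM and 33.5 against 29.2 CPM. The NK cell sum was 4.37 against 3.08 CPM in resting and 0.225 against 0 CPM in stimulated cells.

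For each of the 9 genes, the 3 genes whose levels moved most like it over the 6 libraries were sought among 7923 genes with at least 10 CPM on average, by the root mean square difference of centred log2 CPM. The 6 points share a strong effect of culture, so that this is a description. Jchain was closest to 3 variable genes of the light chains, Iglv2 (0.385), Igkv15-103 (0.39) and Igkv4-59 (0.497), and Sdc1 to Rbm47 (0.215), Igkv6-25 (0.226) and Igkc (0.324). Reads of Igkv genes can be shared between family members. Xbp1 was closest to Derl3 (0.19), which encodes a component of the degradation machinery of the endoplasmic reticulum, then to Gm10282 (0.194) and AA465934 (0.223). Ell2 was closest to Gm22973 (0.164) and to the signal peptidase genes Spcs1 (0.166) and Spcs3 (0.199).

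Prdm1 was closest to Hist1h3h (0.318), Sec24d (0.422) and Hist1h4k (0.434). Fkbp11 was closest to Ifih1 (0.315), Gpr55 (0.37) and Sec24d (0.38), so that Sec24d, a gene of the vesicle coat that carries cargo out of the endoplasmic reticulum, was near both. Mzb1 was closest to Rexo2 (0.0937), Gm4737 (0.136) and Hist1h3f (0.147). Irf4, which varied little, was closest to Arel1 (0.0474), Aplp2 (0.0511) and Tmem175 (0.0559), and Tnfrsf17, at few counts, to Nlrc4 (0.569), Faah (0.578) and Tmem181b-ps (0.602).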

How the data were processed

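RNA of the 6 libraries was sequenced after removal of ribosomal RNA. The deposited values are raw counts per gene name, which the authors made with STAR 2.4.0a on mm10 with Ensembl gene models and featureCounts of Subread 1.4.6-p1, from fragments with primary alignments on 1 strand with multi-mapping reads included, so that genes with near-identical copies can exchange reads. The 92 spike-in RNAs, between 4.75% and 7.10% of all counts, entered neither library sizes nor tests. Positions, exon lengths and GC content came from GENCODE M21 on GRCm38, the same build, and promoter windows from RefSeq.

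The 9 genes, the lists and the motifs were chosen with earlier results of these data known. The 9 genes are all named, in each list those with the largest absolute log2 fold change for LPS (up to 4), and for each of the 9 genes its 3 nearest genes over the 6 libraries. Genes that reached 10 counts in 2 or more libraries were fitted with edgeR 4.0.16 (R 4.3.3), TMM scaling and Benjamini-Hochberg adjustment at 0.05. The table has 1 column for each group, so that p-values judge each effect against the departure from additivity, which may be technical. Ratios of single libraries carry exact conditional binomial (Clopper-Pearson) 95% intervals from scipy 1.17.1. The model was tested on simulated data for LPS over resting on 14600 genes, where it recovered 95.5% of 200 genes changed 4-fold. Of its calls 8.61% were unchanged genes, more than the threshold of 0.05 allows for. The changed genes were drawn only from those with higher counts, so that genes at few counts, such as Tnfrsf17, are not covered. Neither the GC trend, the scatter of the spike-in RNAs nor the genotype comparisons were simulated. Alternatives were other scalings and filters, DESeq2 1.42.0, removal of the GC trend, no genotype block and leaving out genotypes or the LPS-stimulated 3′RR-deficient or, added after the data were seen, wt library. Values of some single marker genes are not reported here.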

Additional observations from a re-analysis of the deposited data

Results flagged for a closer look

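For Sdc1, Irf4 and Jchain the log2 ratio for LPS was above 0 in 3′RR-deficient and below 0 in wt cells, and for Prdm1 the 3′RR-deficient library was below wt in resting cells and above it after LPS. With 1 library per group these differences were not tested. The log2 ratio for LPS in 3′RR-deficient cells exceeded that in wt cells by 2.01 for Sdc1 (1.34 against -0.67), by 1.06 for Prdm1 (3.95 against 2.89), by 0.55 for Irf4 (0.08 against -0.48) and by 0.47 for Jchain (0.23 against -0.24). With the trend on GC content removed these differences were 1.3995, 1.24, 0.61 and 1.51, respectively. All 4 rest on both stimulated libraries. The spike-in RNAs of stimulated over resting libraries scattered with an SD of 0.78 in wt and 0.63 in 3′RR-deficient cells, and the part of that scatter in the differences was not tested.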

How the results depend on the processing

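The 5 genes called with LPS were called in every alternative fit, with adjusted p up to 0.0182, the largest being that of Fkbp11 without the genotype block. The count of all genes called with LPS was 5962, and with 1 genotype left out it ran from 3960 without Eμ-deficient to 6655 without wt libraries. It was 7267 with the GC trend removed. For Eμ-deficient over wt 1 of the 9 genes was called, against 4 without a filter on low counts, 3 with the DESeq2 Wald test, 3 without the LPS-stimulated 3′RR-deficient library, 2 without both 3′RR-deficient libraries and 4 without the LPS-stimulated wt library, a fit added after the data were seen. All genes called were 170, against 641, 340, 421, 393 and 1230. Between 3′RR-deficient and wt libraries all genes called were 99, against 358 without a filter, 178 with DESeq2, 177 without Eμ-deficient libraries and 228 without the LPS-stimulated wt library, and 0 of the 9 genes were called in any of these fits. Log2 fold changes that were not called reversed for LPS with 1 genotype left out in Irf4 (0.061 without wt), Jchain (from -0.69 without 3′RR-deficient to 0.090 without Eμ-deficient) and Sdc1 (from -0.25 without 3′RR-deficient to 0.75 without wt libraries), and for 3′RR-deficient over wt in Sdc1 (-0.32 without the LPS-stimulated 3′RR-deficient library) and Fkbp11 (-0.0074 with the GC trend removed). Without the LPS-stimulated wt library, values also reversed for 3′RR-deficient over wt in Sdc1 (-0.20) and Irf4 (-0.015) and for Eμ-deficient over wt in Irf4 (-0.046). The cause was not tested. Sdc1 was called with LPS without wt libraries (adjusted p = 0.041). Of the genes past 2-fold, 6 in resting Eμ-deficient cells became 3 with total count scaling, and 1 in resting 3′RR-deficient cells became 0 on the log2(CPM + 1) scale. Total count scaling lowers every log2 ratio for LPS in wt by 0.25 and that of 3′RR-deficient to wt resting libraries by 0.19. Fits to only the genotypes compared are those without the third genotype. The LPS test was paired by genotype, and without this block 5421 genes were called. The labels give no replicate numbers by which libraries of different genotypes could be paired.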
